A study of Mus musculus with 11 samples.

Results

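The 35 genes described here are interferon-stimulated genes, chosen by name for their known role in the interferon response, and all 35 were among the 28284 genes of the count table. They were followed across 11 OvTrpMyc mouse cell lines from 7 mice to ask which lines held a basal interferon state. This means expression of these genes in passaged cultures for which no treatment is described. Each line had 1 library of polyadenylated RNA. The lines came from an ovary excised together with its fallopian tube (7 lines, ROV for right and LOV for left), a uterus (2 lines), a splenic tumor (F326) and a peritoneal tumor (F361). All lines shared the genotype Ovgp1-Trp53-R270H-Myc, in which mutant p53 and Myc are driven from a fragment of the oviductal Ovgp1 promoter placed at the Trp53 locus in mice backcrossed to C57BL/6J, and no line without the transgene is compared here. Per the methods of the study, the F361 line did not retain expression of mutant p53. With 1 library a line, no value below has a replicate of its own, and the spread over lines is the error available.

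Type I and type III interferons bind surface receptors that activate the kinases Jak1 and Tyk2, and a complex of transcription factors that includes Stat2 and Irf9 then assembles on interferon-stimulated response elements in the promoters of the responding genes. Those genes encode sensors of foreign RNA, enzymes that degrade RNA or halt translation, ubiquitin-like modifiers and membrane proteins that block viral entry. Several of the factors and sensors are themselves interferon-stimulated, and some tumor cells keep the response switched on without added interferon.

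The libraries fell into 2 sets that differed across the transcriptome: libraries 1 to 7 (F364 ROV, F326 splenic tumor, F364 LOV, F326 ROV, F361 peritoneal tumor, F319 ROV and F318 ROV) and libraries 8 to 11 (the F339 ROV and F318 LOV lines and both uterus lines, F319 and F333). Transcripts of skeletal muscle fiber genes took 8.80% to 16.9% of the counts in the first set and 0.361% to 1.69% in the second. The summed level of 15 macrophage and other blood cell markers ran between 47.3 and 112 CPM (counts per 1000000 counts of the library) in the first set and between 9.08 and 18.9 CPM in the second. The labels give no reason for the split, so the genes were compared within each set, and the part of these cell type markers in the results below was not tested. The labels name the cell type as ovarian cancer. The epithelial markers Epcam and Pax8 lay between 0 and 3.04 CPM in every line, but the sum of 11 epithelial and Mullerian markers ran from 9.87 to 371 CPM in the first set, with F319 ROV at the top through Msln, Wt1 and keratins, and from 11.9 to 45.0 CPM in the second. The levels of 10 fibroblast and mesenchymal genes summed to 1620 to 15921 CPM in the first set. In the second set they summed to 20079 to 35492 CPM. Col1a1, Col3a1, Vim and Fn1 were higher in every line of the second set. Dcn (160 to 323 CPM against 12.1 to 31.8) and Lum (2.72 to 24.9 against 0.175 to 1.49) were lower in every line of it. Col1a2, Thy1, Pdgfra and Pdgfrb overlapped between the sets. Totals ran from 13580525 to 27044598 counts, and 3 counts, taken as the limit of detection, correspond to 0.111 to 0.221 CPM.

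F339 ROV stood above the other lines across this group of genes. The mean over the 35 genes of the log2(CPM + 1) deviation from the mean of libraries 8 to 11 was 1.70 in F339 ROV (SD 0.93 over genes), 0.18 in F319 uterus, -0.83 in F333 uterus and -1.05 in F318 LOV. The SD of these 4 line values was 1.25. Within libraries 8 to 11, F339 ROV held the highest level of 31 of the 35 genes, where it was highest for 23.6% of the 17322 genes with at least 10 counts in a line of the set. Over all 11 lines it was highest for 30 of 35, against 12% of 19117 genes. For 21 of 35 genes its level was at least 2-fold above the next line of all, which held for 1.87% of the 19117 genes. It was at least 4-fold above for 8 genes, against 0.539% of all: Ifi44, Usp18, Ifit1, Oasl2, Ifit3, Zbp1, Dhx58 and Isg15. The median ratio of F339 ROV to the highest of the other 10 lines was 2.64 over the 35 genes and 0.552 over all genes. Within libraries 8 to 11, Oas2, Oas3, Mx1 and Mx2 reached 10 counts in F339 ROV alone, so the filter fixed their place among the 31. Over all 11 lines the same held for Oas3, which is among the 30 and the 21. In bulk RNA, fewer cells of a type and less RNA per cell cannot be told apart, so a level here is an average over the culture.

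**Figure D1:**
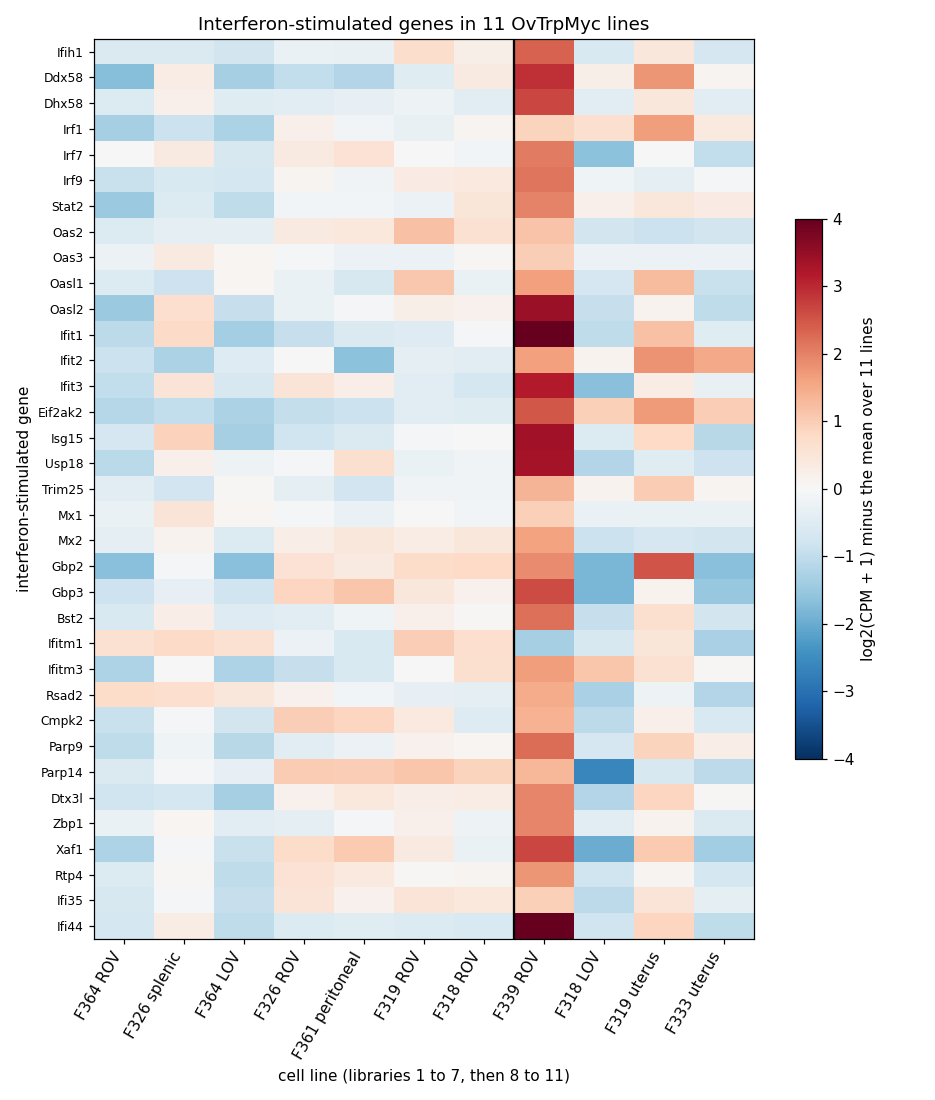
Each row is 1 of the 35 genes and each column 1 line, and the color gives log2(CPM + 1) minus the gene's mean over the 11 lines, with libraries 1 to 7 left of the black line and libraries 8 to 11 right of it. The column of F339 ROV is red for nearly all genes, Ifitm1 being blue, and F319 uterus is the darkest for Gbp2, Ifit2 and Irf1.

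The counting error of single libraries was smaller than these differences for most of the genes. For 25 of 35 genes the 95% Wilson interval of F339 ROV lay wholly above that of every other line, against 5.75% of all 19117 genes. Of the low counts as deposited, those between 1 and 20, 71.9% to 79.6% were even, as when both mates of a pair are counted, so each interval was also computed with counts and totals divided by 2. The number stayed at 25 genes, against 4.62% of all. The 10 genes for which the intervals met or another line was higher were Irf1, Oas2, Oas3, Oasl1, Ifit2, Mx1, Gbp2, Ifitm1, Cmpk2 and Parp14. The intervals cover counting error only, and not the variation between cultures of a line.

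**Figure D2:**
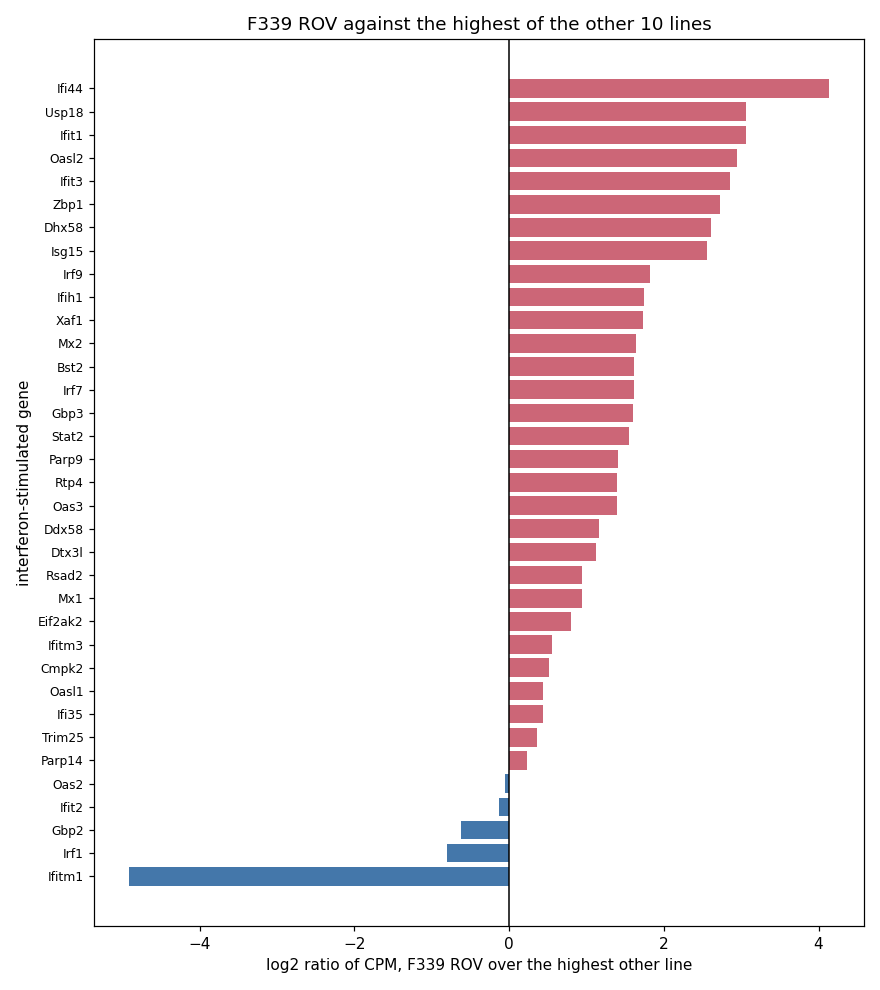
Bars give the log2 ratio of CPM in F339 ROV to the highest of the other 10 lines for each gene, red above and blue below 0. The ratio was above 0 for 30 genes, with Ifi44 at the top, and Ifitm1 lies far below.

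Because interferon-stimulated response elements join these genes, their promoters were read from RefSeq (GRCm38.p6, 250 bases before to 50 after the start), where 26 of the 35 genes had an entry. The letters GAAANNGAAA, searched on both strands with overlapping matches allowed, were present in the promoters of 13 of 26 genes (50%) and of 3.99% of 27025 genes in all. The 4 genes below carry them upstream of the start and had a ratio of F339 ROV to the next line of 3.07 or more, and they are shown with 80 bases on the strand of the gene, the matches in capitals.
Ifit1, chr19:34640769-34640848 (+): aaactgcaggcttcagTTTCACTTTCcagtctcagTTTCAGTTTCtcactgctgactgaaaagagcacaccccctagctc
Ifit3, chr19:34583372-34583451 (+): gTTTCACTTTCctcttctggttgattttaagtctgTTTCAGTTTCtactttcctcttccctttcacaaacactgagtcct
Isg15, chr4:156200840-156200919 (-): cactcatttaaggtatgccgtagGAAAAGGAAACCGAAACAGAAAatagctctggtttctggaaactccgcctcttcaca
Bst2, chr8:71537552-71537631 (-): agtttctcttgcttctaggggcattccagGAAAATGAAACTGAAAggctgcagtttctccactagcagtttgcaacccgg
Ifit1 and Ifit3, which are neighbours, both carry the spaced pair TTTCACTTTC and TTTCAGTTTC, and in Isg15 and Bst2 the matches overlap in a single run. The 13 genes without these letters in the window included Ifi44, Oasl2, Irf7 and Irf9. The palindrome TTCNNNGAA, the core of the interferon gamma activated site, was present for 6 of 26 genes (23.1%) against 9.55% of all. A match describes the letters of the window and is no measure of binding.

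The cytoplasmic RNA sensors were all highest in F339 ROV. Ifih1, which encodes the sensor MDA5 of long double-stranded RNA, stood at 30.0 CPM in F339 ROV, 2.97 in F318 LOV, 7.40 in F319 uterus and 2.79 in F333 uterus, and ran from 2.66 to 8.96 CPM in libraries 1 to 7 with a median of 3.90. Ddx58, the gene of RIG-I, a sensor of RNA with a 5′ triphosphate, was at 104 CPM in F339 ROV and 46.6 in F319 uterus, against 15.2 in F318 LOV and 13.9 in F333 uterus. In libraries 1 to 7 Ddx58 lay between 3.23 and 17.0 CPM (median 6.01), with F318 ROV and F326 splenic tumor at the top. Dhx58, whose product LGP2 modulates the other sensors, reached 15.5 CPM in F339 ROV and 0.761 to 2.55 CPM in the other 10 lines. The next line below F339 ROV was F319 uterus for Ddx58 and Dhx58 and F319 ROV for Ifih1, at ratios of 2.23, 6.09 and 3.35.

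Among the 4 transcription factors of the 35, Stat2, Irf9 and Irf7 were highest in F339 ROV while Irf1 was not. Stat2 stood at 66.8 CPM in F339 ROV and at 18.7, 22.4 and 20.2 CPM in F318 LOV, F319 uterus and F333 uterus, with 5.07 to 22.9 CPM (median 13.5) in libraries 1 to 7. Irf9, its DNA-binding partner, was at 55.7 CPM in F339 ROV and between 5.96 and 15.8 CPM in the other 10 lines. Those 10 lines spanned a narrow range for Irf9, and F339 ROV was 3.52-fold above the next. Irf7, the factor that amplifies interferon gene transcription, was at 20.3 CPM in F339 ROV, 0.611 in F318 LOV, 4.03 in F319 uterus and 1.53 in F333 uterus. In libraries 1 to 7 Irf7 ran from 2.28 to 6.63 CPM (median 4.07). Irf1, which responds to interferon gamma and to inflammatory signals as well, was highest in F319 uterus at 69.6 CPM, followed by F339 ROV at 39.9, F318 LOV at 33.6 and F333 uterus at 28.1. In libraries 1 to 7 Irf1 fell between 7.80 and 24.4 CPM (median 17.0), below all of libraries 8 to 11.

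The 2-5A synthetase family is named for the second messenger that its active members make, which activates RNase L. Oasl2 was at 48.1 CPM in F339 ROV, 1.40 in F318 LOV, 3.96 in F319 uterus and 1.25 in F333 uterus, and at 0.634 to 6.27 CPM (median 3.39) in libraries 1 to 7. F339 ROV thus stood 7.68-fold above the next line, F326 splenic tumor. Oasl1, a restraint on Irf7 translation, was closer between lines, at 5.21 CPM in F339 ROV, 3.85 in F319 uterus and 3.27 in F319 ROV and 0.0928 to 1.14 in the rest. Oas2 did not follow the pattern over all lines: F319 ROV held 3.13 CPM and F339 ROV 3.02, and the Wilson interval of F339 ROV, 2.42 to 3.77, spans both. In the other 3 lines of libraries 8 to 11 Oas2 was at 0 in F319 uterus, 0.0873 in F318 LOV and 0.0928 CPM in F333 uterus, and in libraries 1 to 7 it ran from 0.254 to 3.13 CPM (median 1.34). Oas3 was low everywhere, with 34 counts (1.33 CPM) in F339 ROV, 8 or fewer in libraries 1 to 7 and none in the other 3 of libraries 8 to 11.

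The Ifit genes, whose products bind foreign RNA at its 5′ end, lie side by side on chromosome 19, and Ifit1 and Ifit3 had among the largest ratios of F339 ROV to the next line. Ifit1 was at 69.8 CPM in F339 ROV (Wilson interval 66.7 to 73.1), 1.05 in F318 LOV, 8.39 in F319 uterus and 1.95 in F333 uterus. In libraries 1 to 7 it lay between 0.633 and 6.01 CPM (median 1.77), with F326 splenic tumor at the top. F339 ROV was 8.32-fold above F319 uterus, the next line. Ifit3 stood at 40.1 CPM in F339 ROV, 0.436 in F318 LOV, 4.62 in F319 uterus and 2.79 in F333 uterus, against 1.33 to 5.57 CPM (median 2.46) in libraries 1 to 7. Its near copy Ifit3b, outside the 35, was also highest in F339 ROV at 15.0 CPM, with 9.72 CPM in F361 peritoneal tumor, and reads that match both copies may have been split or dropped. Ifit2 behaved otherwise, at 44.8 CPM in F319 uterus, 40.9 in F339 ROV, 37.4 in F333 uterus and 13.7 in F318 LOV, above the 3.31 to 12.2 CPM of libraries 1 to 7. Eif2ak2, which encodes the kinase PKR that halts translation on double-stranded RNA, was at 117 CPM in F339 ROV, 67.3 in F319 uterus, 40.8 in F333 uterus and 39.9 in F318 LOV, and at 7.72 to 14.2 CPM in libraries 1 to 7.

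**Figure D3:**
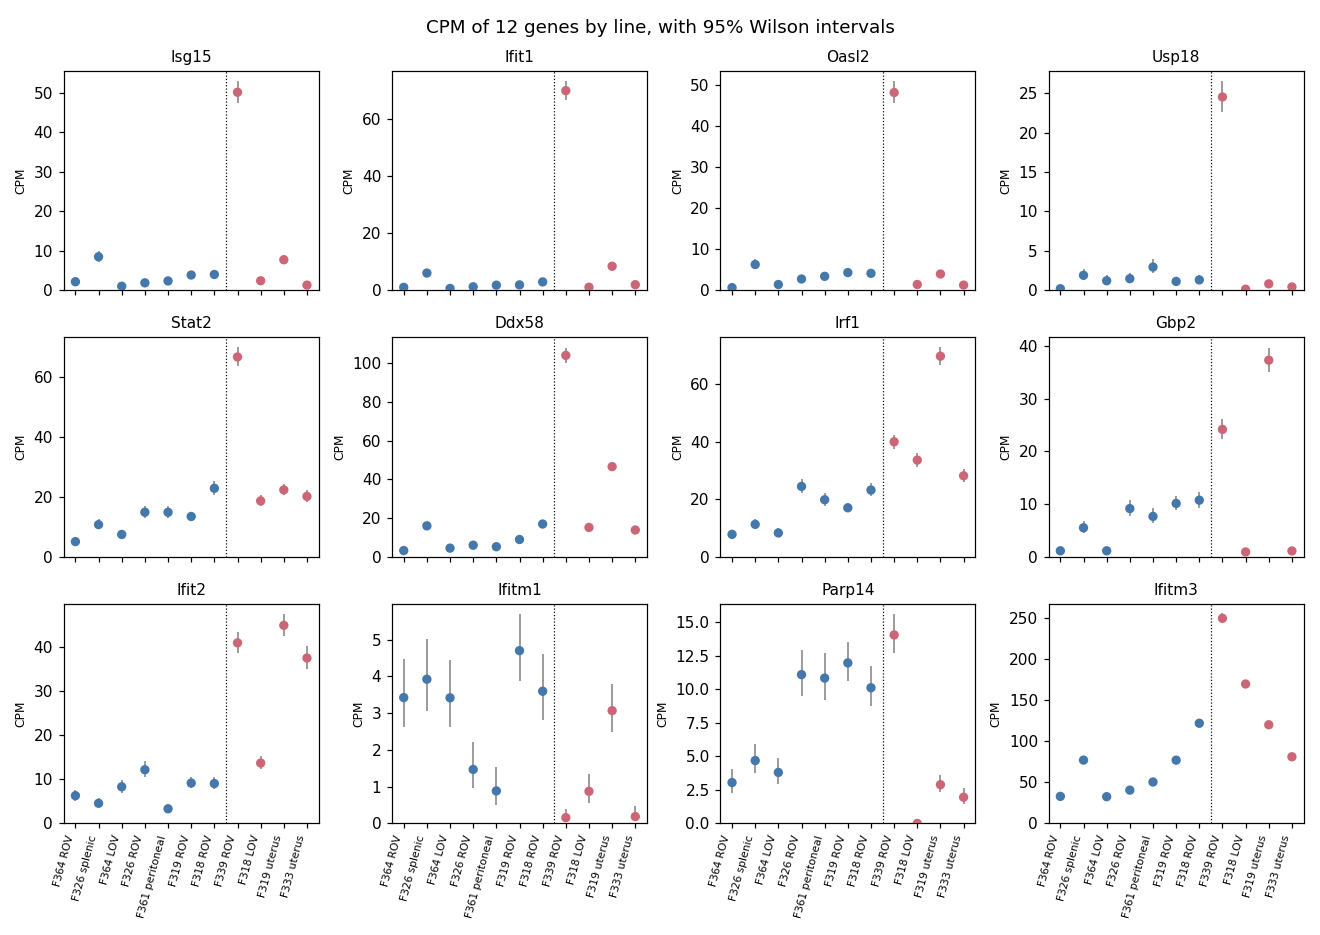
Points give CPM in each of the 11 lines for 12 genes on linear axes, with bars for the 95% Wilson interval, blue for libraries 1 to 7 and red for libraries 8 to 11. F339 ROV stands far above the rest for Isg15, Ifit1, Oasl2, Usp18, Stat2 and Ddx58, while Irf1, Gbp2 and Ifit2 peak in F319 uterus and Ifitm1 is near 0 in F339 ROV.

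Isg15, a ubiquitin-like protein joined to newly made proteins, stood at 50.1 CPM in F339 ROV, 2.40 in F318 LOV, 7.73 in F319 uterus and 1.30 in F333 uterus. In libraries 1 to 7 Isg15 ran from 1.01 to 8.48 CPM (median 2.36), and F326 splenic tumor was again the highest of that set. Usp18, which removes Isg15 and also blocks the type I receptor as feedback, was at 24.5 CPM in F339 ROV, 0.131 in F318 LOV, 0.813 in F319 uterus and 0.418 in F333 uterus, with 0.190 to 2.95 CPM (median 1.31) in libraries 1 to 7. The modifier and its protease were thus high in the same line. Trim25, a ligase for Isg15 and RIG-I, varied less, from 39.7 to 96.1 CPM in libraries 8 to 11 and from 20.9 to 38.2 CPM in the first set.

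The antiviral GTPases divided. Gbp2, which coats intracellular pathogens and responds strongly to interferon gamma, was highest in F319 uterus at 37.3 CPM, followed by F339 ROV at 24.2, and was low in F333 uterus at 1.11 and in F318 LOV at 0.917. Its levels in libraries 1 to 7 ran from 1.14 CPM in both F364 lines to 10.7 CPM in F318 ROV (median 7.66), the widest range of the 35 genes in that set at 2.46 on the log2(CPM + 1) scale. Gbp3 was at 26.2 CPM in F339 ROV and 8.62 CPM or less elsewhere. Mx1, an inhibitor of influenza virus whose allele is defective in C57BL/6 mice, gave 34 counts (1.33 CPM) in F339 ROV, 11 counts or fewer in libraries 1 to 7 (0 to 0.696 CPM, median 0.134) and none in F318 LOV, F319 uterus and F333 uterus. Mx2, annotated in GENCODE M21 as a polymorphic pseudogene, was at 4.63 CPM in F339 ROV and 1.48 or less in the other 10 lines.

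The membrane proteins that hold back enveloped viruses gave the clearest exception. Bst2, which tethers budding virions, was at 74.5 CPM in F339 ROV, 24.2 in F319 uterus, 8.82 in F333 uterus and 7.68 in F318 LOV, with 9.77 to 18.7 CPM (median 13.4) in libraries 1 to 7. Ifitm3, a block to fusion in endosomes, was at 250.2 CPM in F339 ROV, 170.0 in F318 LOV, 120.3 in F319 uterus and 81.3 in F333 uterus, and at 32.6 to 122 CPM (median 50.5) in libraries 1 to 7. Ifitm1, a relative of Ifitm3 on the same chromosome that acts at the cell surface, went the other way. It had 4 counts each in F339 ROV (0.157 CPM) and F333 uterus (0.186 CPM), the lowest levels of all lines, 0.873 in F318 LOV and 3.07 in F319 uterus, and 0.884 to 4.70 CPM in libraries 1 to 7.

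The remaining genes were likewise highest in F339 ROV, with ratios to the next line between 1.17 and 17.5. Rsad2, the gene of viperin, which makes a chain-terminating ribonucleotide, stood at 6.59 CPM in F339 ROV, 0.0873 in F318 LOV, 1.33 in F319 uterus and 0.186 in F333 uterus. Libraries 1 to 7 held 1.08 to 3.42 CPM of it (median 2.003), with F364 ROV at the top. Its neighbour Cmpk2, a nucleotide kinase, reached 4.39 CPM in F339 ROV and 3.07 in F326 ROV. Parp14, a mono-ADP-ribosyltransferase, was at 14.0 CPM in F339 ROV, 2.88 in F319 uterus and 1.95 in F333 uterus, but gave 0 counts in F318 LOV, where the limit of 3 counts is 0.131 CPM and the upper Wilson bound 0.168 CPM. Libraries 1 to 7 held 3.04 to 11.96 CPM of Parp14 (median 10.1). Parp9 and its partner Dtx3l, on the same stretch of chromosome 16, were detected in F318 LOV at 3.93 and 2.49 CPM, and in F339 ROV at 36.2 and 29.4 CPM.

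Zbp1, a sensor of Z-form nucleic acid that triggers necroptosis, stood at 4.74 CPM in F339 ROV, 0.666 in F319 uterus and 0.0873 in F318 LOV, with none in F333 uterus and 0.127 to 0.716 CPM (median 0.285) in libraries 1 to 7. Xaf1, a promoter of cell death, was at 31.0 CPM in F339 ROV, 9.28 in F319 uterus, 0.928 in F333 uterus and 0.262 in F318 LOV. In libraries 1 to 7 Xaf1 ran from 1.14 CPM in F364 ROV to 9.35 CPM in F361 peritoneal tumor (median 3.80). Ifi44 showed the widest range in libraries 8 to 11, from 0 counts in F333 uterus and 0.175 CPM in F318 LOV through 2.70 in F319 uterus to 47.2 CPM in F339 ROV, 17.5-fold above the next line. It was at 1.52 CPM or less in libraries 1 to 7. Rtp4 and Ifi35 were highest in F339 ROV at 9.68 and 26.4 CPM, 2.64-fold and 1.35-fold above the next line.

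**Figure D4:**
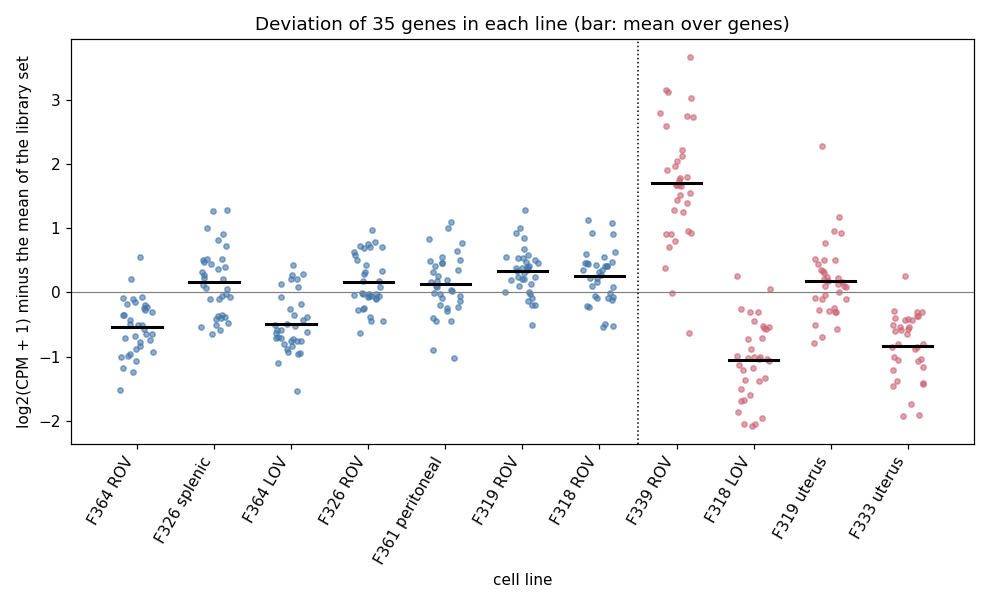
Each point is 1 of the 35 genes in 1 line, plotted as log2(CPM + 1) minus the mean of that gene over the lines of the same library set, and the bar is the mean over genes. The bar of F339 ROV is at 1.70, those of F318 LOV and F333 uterus at -1.05 and -0.83, and those of libraries 1 to 7 lie between -0.54 and 0.33.

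The order below F339 ROV in libraries 8 to 11 was F319 uterus, F333 uterus and F318 LOV. F318 LOV held the lowest level of 20 of the 35 genes, against 26.3% of all genes, and F333 uterus of 10, against 32.5%. These lowest lines were close to each other, with a median absolute difference of 0.21 on the log2(CPM + 1) scale over the 35 genes, while F339 ROV differed from F318 LOV by a median of 2.70. Over all genes the same pairs differed by 0.38 and 0.36. The median range over the lines of libraries 8 to 11 was 2.80 for the 35 genes and 0.79 for all genes, and without F339 ROV it was 1.28 and 0.71.

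Libraries 1 to 7 spread less, with line means from -0.54 to 0.33 (SD 0.36, n = 7). F319 ROV (0.33) and F318 ROV (0.26) led, F326 ROV, F326 splenic tumor and F361 peritoneal tumor followed at 0.16, 0.16 and 0.13, and F364 LOV and F364 ROV were lowest at -0.49 and -0.54. The middle lines lay within 1 SD of each other and of the leaders. Each F364 line held the lowest level of 14 of the 35 genes, against a share of all genes of 10.7% for F364 ROV and 19.2% for F364 LOV, and both lines came from the same mouse. F326 splenic tumor was highest of the set for 8 of the 34 genes with at least 10 counts in a line of it, Isg15, Ifit1, Ifit3 and Oasl2 among them, where it was highest for 15.1% of all genes. F319 ROV was highest for 9 of 34, against 12.7%. F318 ROV was highest for 6 of 34, against 30.5%. With TMM-scaled totals the mean of F318 ROV was 0.12, below those of the middle lines. The lines of a mouse were not always alike: the F364 lines differed by a median of 0.28 over the 35 genes, the third smallest of 21 pairs, but the 2 lines of F326 differed by 0.64, the 12th. The closest pair was F319 ROV and F318 ROV at 0.15, from different mice.

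Mice F318 and F319 had a line in each set. F318 LOV was below F318 ROV for 30 of the 35 genes and above it for 5, with a median difference of -0.86 on the log2(CPM + 1) scale against 0.02 over all genes. F319 uterus was above F319 ROV for 20 genes and below it for 14, with a median of 0.18 against 0.14. In the F319 pair the library set and the tissue cannot be told apart, and in the F318 pair the set and the side cannot.

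Few interferon transcripts could be read, and those were at or near the limit of detection. Of 12 ligand genes looked for, 3 were in the table: Ifnab had 2 counts, in F318 ROV, Ifng had 4, in F319 uterus, and Ifnz had 1 or 2 counts in 6 lines. F339 ROV had 1 count of Ifnz and none of the others. The remaining 9 were not analysed here, so their levels are unknown. The receptors did not separate F339 ROV as the 35 genes did. Ifnar1, a chain of the type I receptor, was at 106 CPM in F339 ROV, 97.4 in F319 uterus, 65.0 in F318 LOV and 47.8 in F333 uterus, and at 13.7 to 61.3 CPM in libraries 1 to 7. Ifnar2, the other chain, was at 46.7 CPM in F339 ROV, 1.14-fold above F319 uterus. Ifngr1 and Ifngr2, the interferon gamma receptor, were 0.969 and 0.901 times the highest other line, and Jak1 and Tyk2 0.658 and 0.864 times. Ifnlr1, the specific chain of the type III receptor, was at 2.16 CPM or less in every line. None of 9 receptor and kinase genes reached a 2-fold margin in F339 ROV.

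Other parts of the pathway were mixed. Among the factors and feedback genes outside the 35, Irf3, the constitutive factor that starts interferon transcription, was at 28.5 CPM in F339 ROV, within the 17.4 to 46.5 CPM of the others, and Irf5 was at 3.29 CPM there against 21.7 to 32.1 in the rest of libraries 8 to 11. Of 14 sensing and adaptor genes, Tlr3, an endosomal receptor of double-stranded RNA, had the 2-fold margin at 8.55 CPM against 4.27 in F333 uterus. Mb21d1, the gene of the DNA sensor cGAS, stood at 17.9 CPM in F339 ROV, 17.5 in F318 LOV, 18.1 in F333 uterus and 9.06 in F319 uterus. Its partner STING (Tmem173) was at 39.0 CPM in F339 ROV and 21.0 in F319 uterus, the next line of libraries 8 to 11. F318 ROV of the first set lay between these levels. Among 7 genes that keep self nucleic acid from being sensed, Adar, an RNA-editing enzyme with an interferon-induced form, was at 70.1 CPM in F339 ROV and 32.1 in F318 LOV, and the other 6, Samhd1 and the RNase H2 subunits among them, were under the 2-fold margin.

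A wider list of 41 interferon-stimulated genes followed the 35: F339 ROV was highest of the 11 lines for 28 of them, against 12% of all genes, and at least 2-fold above the next for 15, against 1.87%. Oas1a, an active 2-5A synthetase, was at 10.4 CPM there and 1.18 or less elsewhere, and Trim30a at 30.3 CPM against 3.85 or less. Slfn8 and Oas1g had the largest ratios of the list, both 10.3, and Oas1g reached the 10 counts asked of all genes in F339 ROV alone. The lowest was Ifi202b, with no counts in F339 ROV and up to 5.31 CPM in F318 ROV. The 13 GTPases that respond chiefly to interferon gamma divided between lines. F339 ROV was highest of the 11 for 7 of them, against the same 12% of all genes, Iigp1 at 19.6 CPM and Irgm1 at 85.7 CPM among them. By contrast Gbp4 was at 0.157 CPM in F339 ROV and at 18.2 and 17.1 CPM in F326 ROV and F361 peritoneal tumor, and Gbp10 at 0.392 CPM in F339 ROV and 16.6 CPM in F326 ROV. F326 ROV held the highest level in libraries 1 to 7 for 9 of these 13 GTPases, where it was highest for 11.8% of all genes. Ifi47 peaked in F319 uterus at 27.5 CPM, the line in which Irf1 and Gbp2 also peaked.

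**Figure D5:**
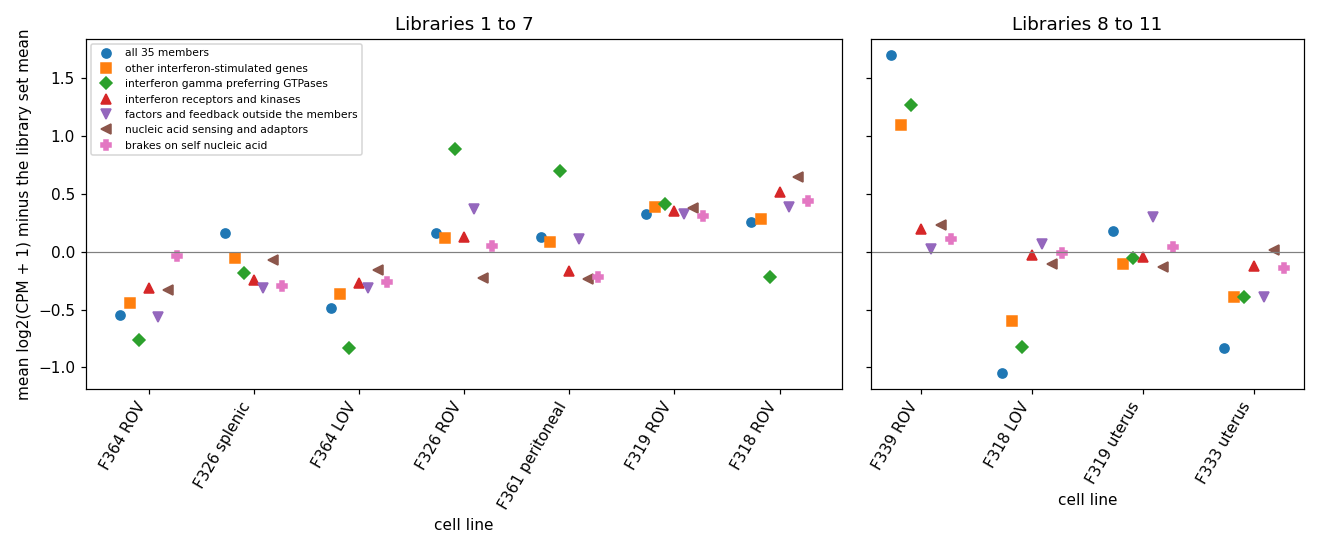
Points give the mean over the genes of each list of log2(CPM + 1) minus the mean of the library set, for the 35 genes and 6 other lists, with libraries 1 to 7 left and libraries 8 to 11 right. In F339 ROV the 35 genes, the other interferon-stimulated genes and the interferon gamma preferring GTPases lie at 1.70, 1.09 and 1.27, while receptors, factors, sensing genes and brakes lie between 0.03 and 0.23.

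Markers of other cells also set F339 ROV apart in part. The 8 endothelial markers summed to 227 CPM in F339 ROV, 2.97 to 20.4 CPM in the other 3 lines of its set and 175 to 490 CPM across the first set. In F339 ROV the sum was nearly all Emcn, at 154 CPM, and Cdh5, at 61.9 CPM. Kdr, Tek, Tie1, Vwf and Cldn5 were each between 0.314 and 1.37 CPM, and Pecam1 was at 7.84 CPM. The 15 blood cell markers summed to 16.7 CPM in F339 ROV, within the range of its set, with Ptprc at 0.274 CPM and Itgam at 0. Muscle genes took 1.33% of its counts, within the range of the set. The part of endothelial transcripts in the level of the 35 genes in F339 ROV was not tested.

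Comparisons between groups of lines were tested with edgeR's quasi-likelihood test and Benjamini-Hochberg adjustment over all genes. Between libraries 8 to 11 and libraries 1 to 7, 58.5% of 15954 genes passed an adjusted p under 0.05, 28.6% higher and 29.9% lower in libraries 8 to 11. Of the 31 interferon-stimulated genes that could be tested, 9 passed, 8 higher and 1 lower, with a median log2 fold change of 0.87 against 0.03 over all genes. The largest called change was in Ifit1 (log2 fold change 2.79, SE 0.94, adjusted p 0.0225), followed by Eif2ak2 (2.27, SE 0.27, adjusted p 7.77e-05), Ddx58 (1.997), Ifit2 (1.83), Dhx58 (1.75), Irf1 (1.05), Ifitm3 (0.98) and Trim25 (0.75). Ifitm1 was lower (-1.90, SE 0.76, adjusted p 0.0479). The share of the 35 that passed was below that of all genes, and the direction rested on F339 ROV: without it 3 were higher (Eif2ak2, Ifit2 and Irf1) and 6 lower, and the median was -0.39. Ifit1 was then at 0.41 (adjusted p 0.658 by edgeR) and Dhx58 at 0.01 (adjusted p 0.985 by edgeR), and Ddx58, Ifitm3 and Trim25 also lost their calls. With mouse as a block, 1 was higher (Eif2ak2) and 2 lower, with a median of -0.89. Ifitm1 was not 1 of these 2, at -1.53 (adjusted p 0.175 by edgeR). The labels give no condition that separates the sets, so none can be attached to this difference.

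Outside the 35, the same test between the sets gave shares near or below the 58.5% of all genes in each list. It called 4 of 9 receptors and kinases higher, Ifnar1, Ifnar2, Ifngr1 and Il10rb. It called 3 of 12 sensing genes higher (Mb21d1, Tlr4 and Zc3hav1) and 2 lower (Aim2 and Mavs), and none of 10 factors and feedback genes. Of 7 brakes, Adar, Pnpt1 and Rnaseh2b were higher and Rnaseh2c lower. Of 39 other interferon-stimulated genes, 10 were higher and 3 lower, and of 13 GTPases Ifi47 was higher and Gbp4, Gbp9 and Gbp10 lower. Gbp4 had a log2 fold change of -6.25 (SE 1.27, adjusted p 0.00145 by edgeR).

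Within the sets no gene of the 35 passed in edgeR with its filter on low counts. For uterus against ovary in libraries 8 to 11 (2 lines against 2), 0 of 31 passed in edgeR, where 0% of 15566 genes did. At an unadjusted p under 0.05 it called 1 of the 31, Ifitm3, against 3.35% of all genes, and DESeq2 called 117 genes and none of the 35. Without the filter edgeR called 604 genes, 11 of the 35 among them, all lower in uterus. The median log2 fold change of the 31 was -1.52, and without F339 ROV, an ovary line, it was 1.45. For the 2 tumor lines against the 5 ovary lines of libraries 1 to 7, 0 of 31 passed, as did 0% of 16299 genes. At an unadjusted p under 0.05 Ifit1 (log2 fold change 1.54, SE 0.61) and Ifit2 (-1.05, SE 0.36) were called, 2 of 31 against 10% of all genes, and DESeq2 called 405 genes but none of the 35. The median was 0.30. For differences between the 5 mice of libraries 1 to 7, edgeR's F test called 0 of 34, where 0% of 17426 genes passed. Gbp2 and Xaf1 had an unadjusted p under 0.05, 2 of 34 against 6.67% of all, and DESeq2's likelihood ratio test called 760 genes, 1 of them among the 35. Each of these designs has a group of 2 lines or fewer, and a missed threshold does not show that the groups are alike.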

How the data were processed

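Polyadenylated RNA of 11 OvTrpMyc lines was sequenced, 1 directional paired-end library a line. The authors aligned reads to GRCm38 (mm10, Ensembl) with RNA STAR, removed duplicates with SAMtools RmDup and counted reads on genes with featureCounts. Tool versions and the handling of reads matching several genes are not given in the sources used here, so values of close copies (Ifit, Oas, Gbp and Mx genes) are uncertain, and removing duplicates can lower high counts more than low ones. The deposited values are raw counts per gene, without normalization. No column of another sample was present (0 columns).

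Groups came from sample titles and library numbers from sample descriptions. The split into libraries 1 to 7 and 8 to 11 was noticed in earlier results of these counts. The members, gene lists and tests were chosen with earlier results of these data known. Levels are CPM of the total count. Log2 values are log2(CPM + 1) and ranges over lines use genes with at least 10 counts in a line. A ratio to a line with 3 counts or fewer uses 3 counts for that line. All 35 genes were described in every line. The naming rule took all 35 genes and, from other lists, ligands, receptors, genes passing a test and the highest and lowest of a list. F339 ROV as the line to compare with, and any other gene named, were chosen after their values were seen.

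Tests were edgeR 4.0.16 quasi-likelihood fits (TMM, filterByExpr), with DESeq2 1.42.0 as an alternative, in R 4.3.3. Levels, Wilson intervals (95%, scipy 1.17.1) and promoter searches were computed in Python 3.11.15 with numpy 2.4.6 and pandas 2.3.3. The fits were tested on simulated data. Totals were 13580525 to 27044598 counts. Because p-values come from lines and nothing says that cultures were repeated, they measure the spread between lines. Alternatives were another scaling, no filter, muscle genes left out, mouse as a block, another pseudocount, a median in place of a mean, and each line left out in turn. Lines of the same mouse share a number but the deviations of such pairs from their set means correlated at 0.25 (F364), -0.51 (F326), -0.05 (F319) and 0.23 (F318) across 15954 genes.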

Additional observations from a re-analysis of the deposited data

Results flagged for a closer look

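Among the 7 ovary lines, the gap between the highest line and its nearest neighbour was set against the whole range on the log2(CPM + 1) scale, for the 35 genes and for their mean. A gap above 0.568 of the range, Dixon's 95% value for 7 samples, was found for 15 of the 36 values, and in all 15 the line that stood apart was F339 ROV. Chance gives such a gap in about 1 of 20 groups, and the genes share libraries and are not independent. The ratio was 0.687 for the mean over the 35 genes. The highest was 0.913 for Ifi44, followed by Dhx58 (0.89), Ifit1 (0.768), Usp18 (0.75), Oas3 (0.734) and Mx1 (0.734). Zbp1 (0.726), Isg15 (0.719), Trim25 (0.677), Oasl2 (0.654), Bst2 (0.641), Parp9 (0.62), Ifit2 (0.6) and Irf9 (0.579) were closer to the critical value. The 7 ovary lines cross both library sets, and F318 LOV, the only other one in libraries 8 to 11, held the lowest level of that set for 20 of the 35 genes. For Oas3 and Mx1 the gap rests on 34 counts in F339 ROV.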

How the results depend on the processing

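The order of libraries 8 to 11 in the mean over the 35 genes was the same under all 5 alternatives (a pseudocount of 0.1 CPM, the median over genes, TMM-scaled totals, totals without muscle genes, and the 32 genes with a mean of at least 1 CPM). F319 ROV stayed first in libraries 1 to 7 and the F364 lines last, while the 4 lines between them changed places. Between the library sets, leaving out each line in turn gave 3 to 11 of the genes higher, 0 to 6 lower, and a median log2 fold change of -0.39 to 1.18, the low end without F339 ROV. Ifitm1, the 1 gene called lower, lost its call in 8 of these 11 fits (without F364 ROV, F364 LOV, F326 splenic tumor, F319 ROV, F318 ROV, F339 ROV, F318 LOV or F333 uterus). It also lost its call with mouse as a block and without the filter on low counts (0 lower). Dhx58 lost it in 7 (each ovary line but F318 LOV, and F361) and Ifitm3 in 5 (both F364 lines, F326 ROV, F339 ROV, F318 LOV). Without F319 uterus Irf1 and Trim25 lost theirs, and Eif2ak2 and Ifit2 kept theirs in all 11. For uterus against ovary, the same exercise gave medians of -2.64 to 1.45, again positive without F339 ROV. Without the filter 604 genes and 11 of the 35 passed, all 11 lower in uterus, and DESeq2 called 117 genes. For tumor against ovary DESeq2 called 405 genes, and leaving out lines gave 0 to 1 gene, the 1 without F318 ROV. Between mice DESeq2 called 760 genes, 1 of the 35. The cause of these changes was not tested.

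With mouse as a replicate block, where lines without a partner contribute nothing, the library sets differed in 3028 genes and 3 of the 35 (Eif2ak2 higher, 2 lower; Ifit1 fell to 0.17, adjusted p 0.93 by edgeR), with a median of -0.89, and tumor against ovary, paired for F326 alone, had a median of -0.31. The numbers mark a mouse, but pairs did not all deviate together. No paired analysis was possible because no mouse had a line on both sides for uterus against ovary in libraries 8 to 11.

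Depth limits Oas3, Mx1, Zbp1, Ifi44, Oasl1, Mx2, Oas2, Dhx58 and Cmpk2, which had under 20 counts in most lines, and Ifitm1 in F339 ROV. With 1 library a line, a difference between lines cannot be set against cultures of the same line.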

Other observations

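Outside the lists, 5 of the genes with the largest ratios of F339 ROV to the highest other line, among those with at least 100 counts there, were picked for their known roles after their values were seen. Gm13652, 2600014E21Rik, Pcdhgb1 and Hunk ranked among them and are not described. Nts, the gene of neurotensin, was at 42.5 CPM in F339 ROV and 0.442 CPM in the next line, and Csn3, a milk casein, at 11.2 against 0.148 CPM. Rspo3, a secreted enhancer of Wnt signaling, was at 238 CPM against 13.9, Meox1, a homeobox factor of mesoderm, at 72.2 against 4.34, and Tal1, a factor of blood and endothelial progenitors, at 66.0 against 4.20 CPM. Ifi44 ranked 5th in this order of all genes and Usp18 21st, and the endothelial marker Emcn 14th.

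Il1rn, which encodes the antagonist of the interleukin 1 receptor, was at 47.2 CPM in F339 ROV and 5.39 CPM in the next line. Nlrc5, a factor for class I antigen presentation, was highest in F319 uterus at 14.3 CPM, with 4.63 CPM in F318 LOV and 0.941 in F339 ROV, and it did not pass the test between the library sets (adjusted p 0.408 by edgeR).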
